A study of Oryza sativa Japonica Group with 4 samples.

Results

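Oleosins are the small structural proteins that coat the oil bodies of seeds. A hydrophobic hairpin anchors them in the surface of the droplet, where they keep the droplets small and apart while the seed dries and germinates. In cereal grains the oil, and the oleosins with it, lies mainly in the embryo and in the aleurone, the living outer layer of the endosperm, while the starchy endosperm stores starch and protein. Oleosin transcripts can therefore be read as marks of embryo or aleurone tissue in an RNA sample.

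The members are the 3 rice oleosin genes LOC_Os04g46200, LOC_Os03g49190 and LOC_Os05g50110, chosen by gene ID among the 56797 gene IDs of the deposited table. Each had 1 transcript model, so they make up 3 of the 67393 models. All 3 were described there as putative oleosins. The table names 3 other oleosin genes, which are given for comparison.

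Endosperm of the japonica cultivar Nipponbare was sequenced at the grain-filling stage as 4 poly(A) RNA-seq libraries. Replicates 1 and 2 of the control temperature are called control 1 and control 2 here, and those of the high temperature heat 1 and heat 2. All per-library values follow this order. The control plants stayed at 28°C by day and 22°C by night, with 12 h of each. The high temperature plants were moved to 35°C by day and 28°C by night 5 days after pollination, and both groups were sampled after 5 days of treatment. The labels call the tissue endosperm, whereas the methods of the study state that fresh seeds were sampled and that RNA was extracted from endosperm. Neither source gives the number of plants in a library or describes a removal of embryo or aleurone.

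The libraries held from 6395533 to 11492692 counted reads. A pair of very abundant transcripts (of LOC_Os09g00999 and of its neighbour by ID, LOC_Os09g01000) took 8.51% and 25.9% of the control reads and 35.2% and 10.05% of the heat reads. The share was thus higher in control 2 and heat 1, and so was the summed level of late embryogenesis abundant and dehydrin genes, at 422.3, 1663, 1438 and 558.5 CPM. These libraries carry different temperature labels, which were used as given, and a crossing of libraries or labels was not tested. Every level given relative to the total moves with the share of the pair. For that reason oleosin levels are given on 3 scales: CPM (the count divided by the library total, times 1000000), CPM after TMM (a trimmed mean of ratios that assumes most transcripts do not differ between libraries), and CPM with the abundant pair left out of the total. RPKM, which also divides by transcript length, was recomputed from the reads and is used where genes are compared with each other.

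LOC_Os04g46200, with a transcript of 869 bases, was the most abundant of the 6 oleosins in the table. It had 6799 and 4541 reads in the control libraries and 3438 and 4375 in the heat libraries. Its RPKM was 680.8, 651.4, 506.3 and 787.2 in that order. The mean of 656.4 ± 115.8 RPKM (SD, n = 4) placed it 57th among the 44411 transcript models with reads. Within single libraries it ranked between 54th and 62nd, so an oleosin was among the 100 most abundant transcripts of each library labelled as endosperm.

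LOC_Os03g49190, of 976 bases, followed with 4863, 2897, 2423 and 3106 reads in the same order of libraries. Its RPKM was 433.5, 370.0, 317.7 and 497.6, with a mean of 404.7 ± 78.0 (SD, n = 4), and it ranked 81st, or 69th to 91st within single libraries. In each library LOC_Os04g46200 lay above LOC_Os03g49190, by 1.57 to 1.76 times in RPKM.

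LOC_Os05g50110, of 1292 bases, was far lower, with 107, 90, 132 and 104 reads. Its RPKM was 7.21 and 8.68 in the control libraries and 13.1 and 12.6 in the high temperature libraries, with a mean of 10.4 ± 2.89 (SD, n = 4). Of the summed RPKM of the 3 genes it made up 0.643%, 0.843%, 1.56% and 0.970%, most in heat 1. All 3 members had reads in every library and passed the filter on low counts.

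The 2 abundant oleosins kept nearly the same ratio in all 4 libraries. Of the reads of this pair of genes, LOC_Os04g46200 held 58.3% in control 1 (95% exact Clopper-Pearson interval 57.4 to 59.2). The share was 58.7% (57.4 to 59.9) and 58.5% (57.4 to 59.6) in the heat libraries. Control 2 stood slightly apart at 61.1% (59.9 to 62.2). These intervals, like the Poisson intervals of the plot of CPM by library, cover counting error only and hold no variation between libraries or plants. Reads copied by PCR are not independent molecules, so the intervals may be too narrow even for counting error.

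**Figure D1:**
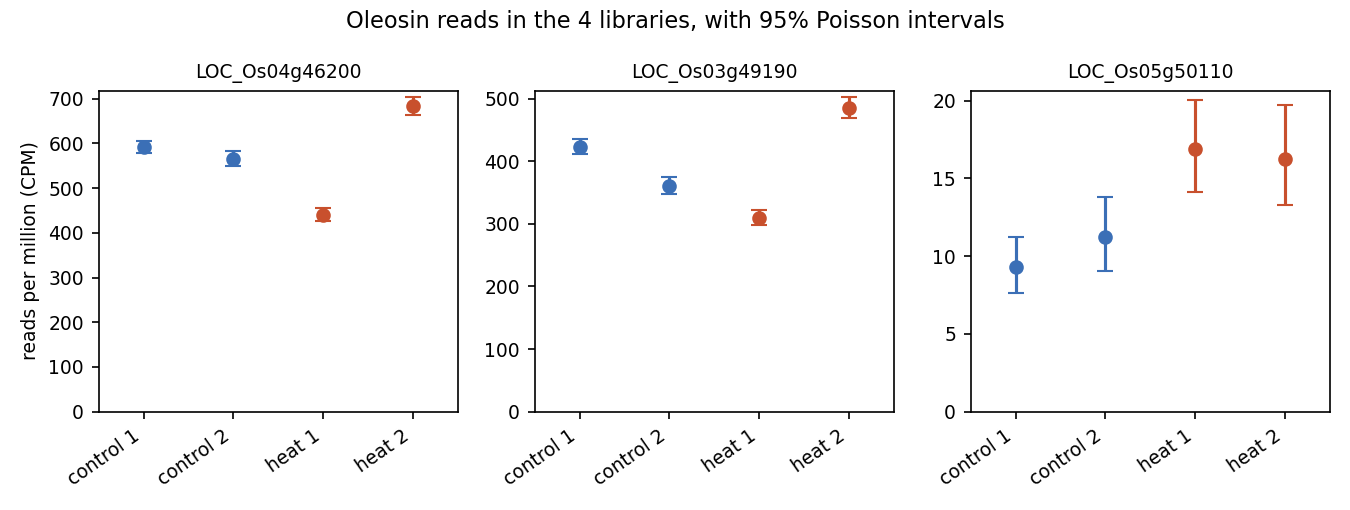
CPM (relative to the library total) of each of the 3 oleosins, 1 panel a gene, in the control libraries (blue) and the high temperature libraries (orange). Points are single libraries and bars are 95% exact Poisson intervals. For LOC_Os04g46200 and LOC_Os03g49190 the control values lie between those of heat 1 and 2, while for LOC_Os05g50110 both high temperature values (16.9 and 16.3) lie above both control values (9.31 and 11.2).

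Temperature was compared to ask whether the amount of oleosin RNA differed between grain filling at high and at control temperature. No difference was called for any of the 3 genes. LOC_Os04g46200 had 578.8 ± 18.1 CPM (SD, n = 2) at control temperature and 562.0 ± 172.6 CPM (SD, n = 2) at high temperature. The high temperature replicates, at 440.0 and 684.1 CPM, lay below and above both controls, so the groups overlapped. Its log2 fold change, heat over control, was -0.12 with a standard error of 0.43 (adjusted p = 0.974). This p came from the quasi-likelihood test of edgeR, adjusted by Benjamini-Hochberg over 27358 transcripts.

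LOC_Os03g49190 had 392.1 ± 43.9 CPM (SD, n = 2) at control and 397.9 ± 124.1 CPM (SD, n = 2) at high temperature. Its high temperature values of 310.1 and 485.7 CPM again lay on either side of the control values of 423.1 and 361.1. The log2 fold change was -0.03 with a standard error of 0.40 (adjusted p = 0.994, edgeR). For both genes the difference between the replicates of a temperature was larger than the difference between the temperatures, and its sign turned when single libraries were left out.

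LOC_Os05g50110 had the largest estimate of the 3. It had 9.31 and 11.2 CPM at control and 16.9 and 16.3 CPM at high temperature. On this scale the groups did not overlap and the mean at high temperature was 1.62 times that at control, but 12.6% of all tested transcripts likewise had both high temperature values above both controls. With the abundant pair left out of the totals the groups again did not overlap, at 10.2 and 15.1 against 26.1 and 18.1 CPM, as for 21.2% of all tested transcripts. After TMM they overlapped, because control 2 (14.8 CPM) lay just above heat 2 (14.5 CPM), and 19.1% of tested transcripts were higher in both high temperature libraries on that scale. None of the 3 genes was lower in both, as were 9.08% of transcripts in CPM, 17.7% after TMM and 8.98% without the pair. After TMM LOC_Os05g50110 was highest in control 2 and heat 1, like 20.8% of all tested transcripts (4.38% in CPM). The log2 fold change was 0.64 with a standard error of 0.39 (adjusted p = 0.821, edgeR). It was 0.17 without control 1 and 1.24 without control 2 (adjusted p = 0.119, edgeR), so its size rested on those libraries.

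Over all tested transcripts, 0 (0%) had an adjusted p under 0.05 in the same edgeR test. At an unadjusted p under 0.05 there were 1900 transcripts (6.94%), and 0 of the 3 oleosins was among them. With DESeq2, 58 transcripts (0.212%) and 0 oleosins had an adjusted p under 0.05. Two-sided exact permutation of 2 against 2 libraries cannot give a p below 0.333, so no single value could be called by such a test. The labels do not say whether the replicates came from separate plants, so the spread between them may be technical. In these bulk samples a lower share of oil-storing cells and less oleosin RNA per cell cannot be told apart.

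The order of the libraries depended on the scale. Summed over the 3 genes, oleosins took 0.102%, 0.0938%, 0.0767% and 0.119% of the reads. That is 1024, 938.4, 767.0 and 1186 CPM, with heat 1 lowest and heat 2 highest. After TMM, whose factors were 1.32, 0.756, 0.891 and 1.12, the sums were 776.1, 1241, 860.9 and 1054 CPM, and control 1 and 2 became the lowest and the highest. With the abundant pair left out of the totals the sums were 1119, 1267, 1184 and 1318 CPM.

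The spread between libraries also changed with the scale. The highest sum was 1.55 times the lowest in CPM, 1.60 times after TMM and 1.18 times without the abundant pair. The mean of the high temperature libraries was 0.995 times that of the controls in CPM, 0.9497 times after TMM and 1.05 times without the pair. Under none of these 3 scales did the groups separate.

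**Figure D2:**
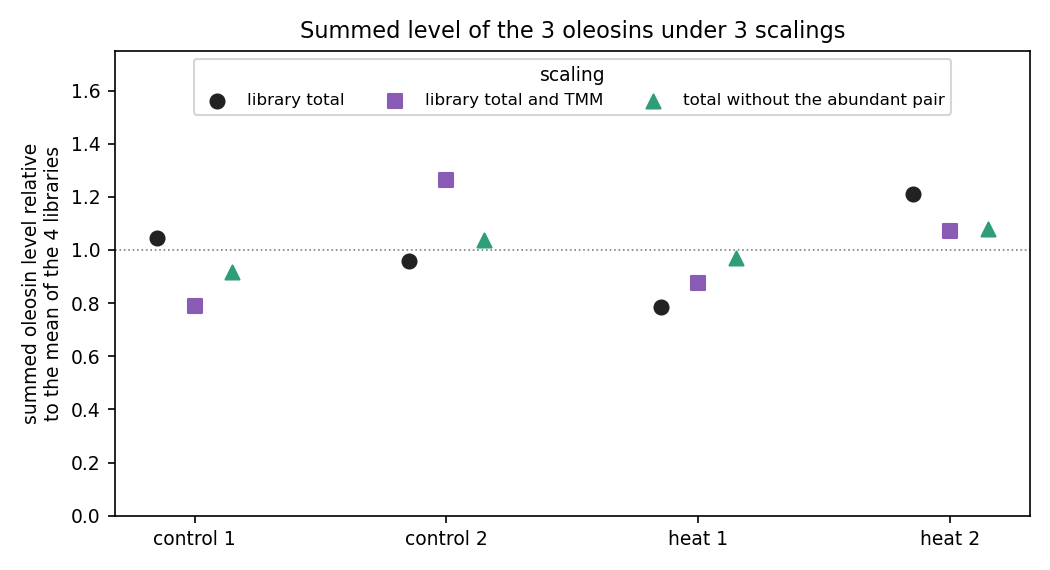
Summed level of the 3 oleosins in each library, divided by the mean of the 4 libraries, under 3 scalings: library total (circles), library total with TMM (squares) and total without the abundant pair of transcripts (triangles). The values spread from 0.789 to 1.26 after TMM and from 0.916 to 1.08 without the pair, and the library that is highest differs between scalings.

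The deposited column headed RPKM does not serve for the oleosins of control 1, because there the authors' values multiply reads by the length where RPKM divides by it. The deposited value was 514.1 for LOC_Os04g46200 against 680.8 recomputed from reads, 413.0 against 433.5 for LOC_Os03g49190, and 12.0 against 7.21 for LOC_Os05g50110. As deposited, the control replicates of LOC_Os05g50110 stand at 12.0 and 8.68, beside high temperature values of 13.1 and 12.6. The value of control 1 is in another unit than the rest, so neither a distance nor an overlap of the groups can be read from these values.

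The 3 oleosins outside the chosen set were all less abundant than the 2 leading ones. LOC_Os09g15520 had 12.5, 30.8, 30.9 and 21.1 RPKM, a mean of 23.8 RPKM that lay above LOC_Os05g50110. Its lowest value lay below the highest of LOC_Os05g50110 (13.1), so the ranges of these genes overlapped across libraries. Within each library, however, LOC_Os09g15520 lay above LOC_Os05g50110. The ranges of LOC_Os04g46200, LOC_Os03g49190 and LOC_Os09g15520 did not overlap. In RPKM LOC_Os09g15520 was lowest in control 1, where LOC_Os04g46200 was at its second highest. After TMM both genes were lowest in control 1 (7.32 and 448.4 CPM) and highest in control 2 (31.3 and 748.5 CPM). LOC_Os06g27910 had 2.86 to 5.09 RPKM and LOC_Os01g45624, with 6 to 32 reads a library, had 1.10 to 3.98 RPKM, again overlapping ranges. Their log2 fold changes were 0.12, -0.09 and -0.22, with standard errors of 0.61, 0.41 and 0.57, and none was called. For LOC_Os09g15520 the log2 fold change was -0.61 without control 1 and 1.49 without control 2 (adjusted p = 0.0618, edgeR).

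Besides oleosins, oil bodies carry caleosins, which bind calcium, and steroleosins, which are sterol dehydrogenases. The words for these proteins and for hydroxysteroid dehydrogenases found 13 genes, of which 10 had reads and 9 were tested. EdgeR called none. Of the 9 log2 fold changes 8 were above 0, against 9636 of the 18932 genes tested with 1 model each. The median of the list was 0.17, against 0.01 over all those genes. The median was 1.04 without control 2 and -0.30 without heat 1. LOC_Os04g32080, described as an 11-beta-hydroxysteroid dehydrogenase, had 35.4, 43.4, 45.8 and 38.5 RPKM. LOC_Os02g30690, the gene described as a steroleosin, and the caleosins LOC_Os02g50150 and LOC_Os06g14350 had no reads.

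The most abundant of these genes was the caleosin LOC_Os04g43170, with 56.4, 113.0, 115.5 and 74.3 RPKM in the 4 libraries. It was high in control 2 and heat 1, unlike the leading oleosins, and its log2 fold change was 0.03 with a standard error of 0.58. The caleosin LOC_Os02g50140 had the largest estimate, from 60, 10, 45 and 83 reads. It had 5.22 and 1.25 CPM at control and 5.76 and 13.0 CPM at high temperature. Its groups did not overlap, but 12.6% of all tested transcripts likewise had both high temperature values above both controls. Its log2 fold change was 1.59 with a standard error of 0.46 (adjusted p = 0.573, edgeR). The caleosin LOC_Os02g50174 had 20.2 and 19.4 RPKM at control and 37.6 and 30.1 RPKM at high temperature, with a log2 fold change of 0.76 and a standard error of 0.37 (adjusted p = 0.751, edgeR).

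**Figure D3:**
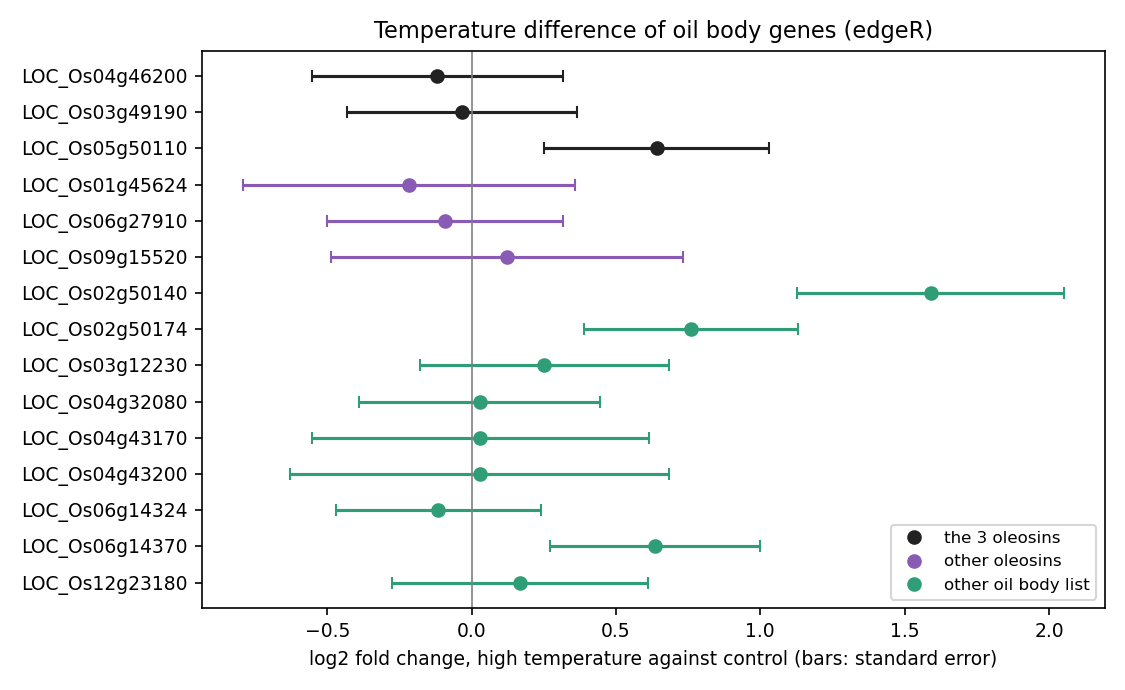
Log2 fold change, heat over control, from edgeR, for the 3 oleosins (black), the 3 other oleosins (purple) and the 9 tested genes of the other oil body list (green). Bars are standard errors. The leading oleosins lie at -0.12 and -0.03, LOC_Os05g50110 lies at 0.64 and the caleosin LOC_Os02g50140 at 1.59, and none of the 15 was called.

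Oleosins share their tissues with other proteins of the embryo and aleurone, and ratios within a library do not depend on how libraries are scaled. Late embryogenesis abundant (LEA) proteins and dehydrins, hydrophilic proteins that accumulate as seeds dry, gave 34 genes, of which 31 had reads. Their summed reads per oleosin read were 0.412 and 1.77 at control and 1.88 and 0.471 at high temperature. The groups overlapped, and the replicates of a temperature differed far more than the temperatures. Of the 26 tested, 25 had their highest values in control 2 and heat 1 after TMM, against 21.8% of all genes tested. Of the same 26, 0 had theirs in control 1 and heat 2, against 20.3%.

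The most abundant of these genes was the dehydrin LOC_Os11g26790, which is also among the marks listed by ID, with 58.5, 444.8, 363.1 and 66.5 CPM in the 4 libraries. The LEA gene LOC_Os04g49980 had 25.4, 218.8, 148.7 and 43.5 CPM. The dehydrin LOC_Os01g50700 had 30.02, 104.2, 112.9 and 49.9 CPM. In CPM these genes were thus low in control 1 and heat 2, where LOC_Os04g46200 was highest. Of all tested transcripts, 55.3% had their higher CPM in those libraries. After TMM LOC_Os04g46200 was lowest in control 1 (448.4 CPM) and highest in control 2 (748.5 CPM), as were LOC_Os11g26790, LOC_Os04g49980 and LOC_Os01g50700. The LEA and dehydrin genes had a median log2 fold change of -0.05 and edgeR called none. Without control 2 the median was 1.52 and 9 genes were called, where 354 of all 26947 tested transcripts (1.31%) were called, and without heat 1 the median was -1.10.

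The 10 genes listed by ID as marks of embryo and aleurone all had reads, and 9 were tested. Summed, they had 1.62 and 4.35 reads per oleosin read at control and 6.14 and 3.22 at high temperature. Their median log2 fold change was 0.22, from -0.10 without control 1 to 0.78 without control 2, where 2 genes were called (1.31% of all transcripts in that fit). The pair of cupin domain genes LOC_Os03g57960 and LOC_Os03g46100 held most of these reads. LOC_Os03g57960 had 675.6, 1885, 2103 and 1563 CPM, lowest in control 1. LOC_Os03g46100 had 482.1 and 1181 CPM at control and 1737 and 1754 CPM at high temperature. In CPM 12.6% of all tested transcripts likewise had both high temperature values above both controls. After TMM the groups of LOC_Os03g46100 overlapped only by a near tie, with control 2 at 1561 and heat 2 at 1560 CPM. Its log2 fold change was 0.87 with a standard error of 0.69 (adjusted p = 0.857, edgeR). The small hydrophilic seed protein LOC_Os05g28210 had 65.3, 263.1, 210.1 and 101.5 CPM, in the same order of libraries as LOC_Os11g26790.

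The peroxiredoxin LOC_Os07g44430 had 240.5, 215.4, 177.6 and 175.7 CPM. The histone-like transcription factor LOC_Os02g49410 had 114.2, 78.3, 95.3 and 128.4 CPM, highest like the leading oleosins in heat 2. The regulators with a B3 DNA binding domain, LOC_Os01g68370 and LOC_Os01g51610, and the bZIP factor LOC_Os01g64000 stayed between 4.49 and 13.0 CPM. LOC_Os02g49370, a further histone-like factor, had 13 reads in control 1, 1 in heat 1 and 0 in the other libraries. After TMM 7 of the 9 tested genes of this list were highest in control 2 and heat 1, against 21.8% of all genes tested. LOC_Os07g44430, LOC_Os01g68370 and LOC_Os01g64000 were among the 7, and LOC_Os03g46100 was so only by its near tie of control 2 and heat 2. On that scale LOC_Os04g46200 and LOC_Os03g49190 were highest in control 2 and heat 2. The part of tissue content in the oleosin levels was not tested.

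**Figure D4:**
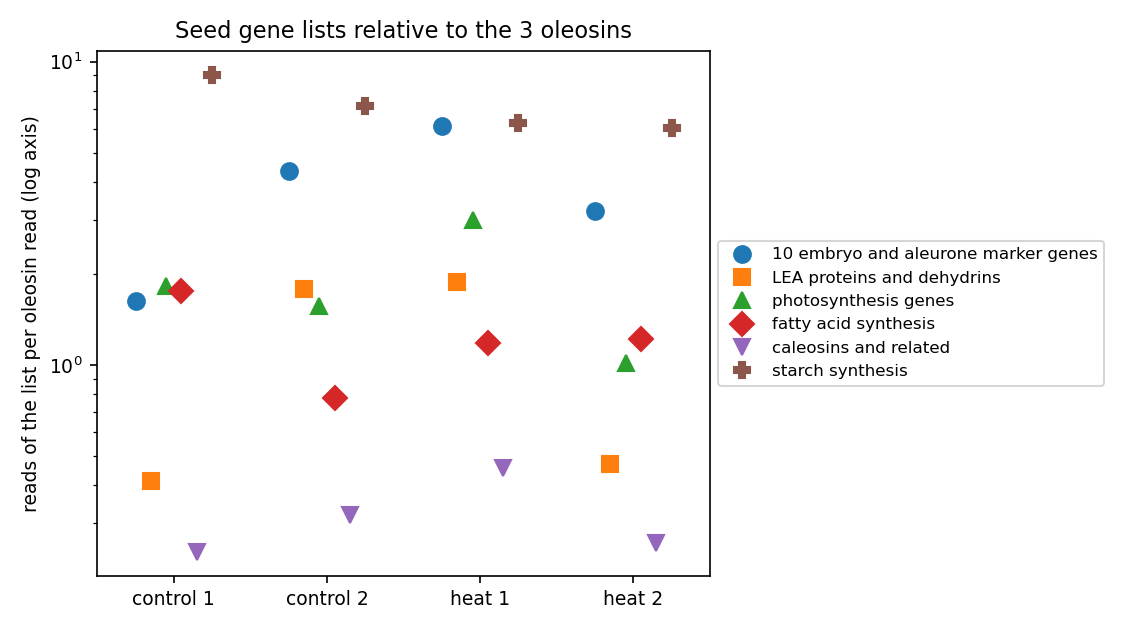
Summed reads of 6 gene lists divided by the summed reads of the 3 oleosins within each library, on a log axis. LEA proteins and dehydrins (squares) stand at 1.77 and 1.88 in control 2 and heat 1, against 0.412 and 0.471 in the other libraries, while starch synthesis genes (crosses) stay between 6.05 and 9.06.

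The starchy endosperm list of storage protein and starch synthesis genes took 35.99%, 36.4%, 22.8% and 38.9% of the reads. All but 1 of its 64 genes had reads. For every 100 reads of this list there were 0.285 and 0.258 oleosin reads at control and 0.336 and 0.305 at high temperature. Heat 1 and heat 2 thus exceeded both controls, but the summed oleosins alone did not separate on any of the 3 scales. After TMM 34 of the 62 tested genes of the list were lower in both high temperature libraries, against 3238 of 18932 genes tested. In the other direction 2 were higher in both, against 3718. How often ratios of other genes to this list separate was not computed. Against glutelins alone the oleosin ratios were 0.372 and 0.349 at control and 0.402 and 0.355 at high temperature, and the groups overlapped. Against starch synthesis genes alone they were 11.04 and 14.03 at control and 15.96 and 16.5 at high temperature.

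The starchy endosperm list itself had overlapping groups, with sums of 359879 and 363539 CPM at control and 228091 and 389052 CPM at high temperature. Of the 62 starchy endosperm genes tested, 50 had a log2 fold change below 0, against 9296 of 18932 over all genes tested. The median of the 62 was -0.61, against 0.01 over all genes tested. EdgeR called none of them and DESeq2 called 2, where DESeq2 called 0.212% of all transcripts. At an unadjusted p under 0.05, 12 of the 62 were lower and 2 higher, against 2.79% and 4.15% of all tested transcripts. The median lay between -0.84 and -0.39 when each library was left out in turn. The most abundant of them, the glutelin LOC_Os01g55690, had 56226 and 79327 CPM at control and 51434 and 74621 CPM at high temperature. The glutelins LOC_Os10g26060 and LOC_Os03g31360 had log2 fold changes of -0.22 and -0.06, with standard errors of 1.02 and 0.89.

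Oil needs fatty acids and their assembly into triacylglycerol before oleosins can coat it. The fatty acid synthesis list gave 44 genes, of which 37 were tested and 0 were called, with a median log2 fold change of -0.08. They had 1.76 and 0.779 reads per oleosin read at control and 1.18 and 1.22 at high temperature. The acyl-desaturase LOC_Os01g69080, which introduces a double bond into fatty acids, had 315.7, 130.1, 193.8 and 304.7 CPM. The acetyl-CoA carboxylase LOC_Os05g22940, the committed step of the pathway, had 262.9, 143.4, 170.1 and 273.3 CPM, and the acyl-desaturase LOC_Os04g31070 had 130.2, 68.2, 79.7 and 130.2 CPM. Like the leading oleosins, these 3 genes had their higher CPM in control 1 and heat 2, as did 55.3% of all tested transcripts.

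The triacylglycerol assembly list was less abundant, at 0.107 to 0.150 reads per oleosin read. Most of its genes are described as glycerol-3-phosphate acyltransferases, and which of them serve oil storage was not tested. Of the 23 genes of the list, 16 had reads, 8 were tested and 0 were called. Their median log2 fold change was 0.36, but -0.04 without heat 1, 0.67 without heat 2, -0.01 with no filter on low counts and -0.20 with at least 5 CPM in 2 libraries. The diacylglycerol O-acyltransferase LOC_Os06g22080, of the enzyme family that completes triacylglycerol, had 43.1 and 19.4 CPM at control and 16.1 and 33.0 CPM at high temperature. The lipin LOC_Os11g40080 had 51.3, 38.8, 33.8 and 45.8 CPM. The glycerol-3-phosphate acyltransferase LOC_Os01g63580 had 16.9 and 10.5 CPM at control and 26.0 and 24.1 CPM at high temperature, with a log2 fold change of 0.93 and a standard error of 0.29 (adjusted p = 0.598, edgeR).

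Photosynthesis genes mark the green pericarp around the grain. Their 79 genes, 67 of them tested and 0 called, had 1.83 and 1.57 reads per oleosin read at control and 3.004 and 1.01 at high temperature, and a median log2 fold change of 0.09. The median was -0.70 without heat 1, 0.64 without control 2 and 0.57 without heat 2. After TMM 40 of the 67 (59.7%) were highest in control 2 and heat 1, against 21.8% of all genes tested. The chlorophyll A-B binding protein gene LOC_Os01g41710 had 263.2, 128.1, 286.7 and 168.4 CPM. LOC_Os09g17740 and LOC_Os08g33820, of the same description, ranged from 86.1 to 246.7 and from 88.8 to 139.4 CPM. Heat 1, which held the lowest oleosin CPM although not the lowest after TMM, held the most photosynthesis reads per oleosin read.

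Among 6471 genes with a mean of at least 10 CPM, the patterns nearest to the summed oleosins were found by the distance between centred log2(CPM + 1) values over the 4 libraries. The nearest was LOC_Os04g40070, with GRAM and C2 domains, at a distance of 0.027, followed by LOC_Os01g63800 (pleckstrin homology domain, 0.068), LOC_Os02g34850 (histone-lysine N-methyltransferase, 0.072), LOC_Os08g14230 (villin, 0.073) and LOC_Os01g12890 (expressed protein, 0.075). None of the 5 is described as an oil body or seed storage protein. The nearest gene of the fixed lists that was named by its abundance was the lipin LOC_Os11g40080, at a distance of 0.27 and rank 208. The dehydrin LOC_Os11g26790 had a distance of 3.05 and rank 6459. With 4 libraries, and with the share of the abundant pair in every value, these distances are a description.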

How the data were processed

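The authors deposited 1 table of 4 libraries with the length in bases, a read count and a column headed RPKM for each transcript model. The deposited read counts were not normalized, and the paper states that expression was derived from uniquely mapped reads on exons. Aligner, genome build and annotation release are not given in the sources used here. In 3 libraries the authors' RPKM equalled reads per kilobase, relative to the column total, (relative tolerance 0.0001). In control replicate 1 the deposited score is reads multiplied by length, and it was used only in 1 alternative. NA counts were read as 0. In descriptions the letters "up" appear as "down" (cupin, group) and were read back.

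CPM and RPKM were computed from the counts with Python 3.11.15, pandas 2.3.3, numpy 2.4.6 and scipy 1.17.1. Temperature was tested with edgeR 4.0.16 in R 4.3.3 (TMM, quasi-likelihood, no replicate block) over the 27358 transcripts that reached 1 CPM in 2 or more libraries, with Benjamini-Hochberg adjustment at 0.05. The common dispersion was 0.0746. Standard errors are the size of the log2 fold change over the square root of F. Alternatives used DESeq2 1.42.0 and limma 3.58.1 on log2(deposited RPKM + 1). The test was checked on simulated data, in which libraries differed only by planted changes, depth and random spread. The planted changes were larger than the oleosin estimates, and the check does not cover the uneven share of the abundant pair.

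Lists were defined by words in the descriptions or by ID, and used 1 model a gene, that of highest mean CPM. The genes named are all oleosins, some of the other oil body genes, the genes listed by ID, the 3 most abundant of each other list and the 5 nearest patterns. The members and lists were chosen with earlier results of these data known. The table of gene symbols held 0 of the 56797 gene IDs, so no symbols or positions are given. Depth limits LOC_Os05g50110, at 90 to 132 reads a library, to wide Poisson intervals.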

Additional observations from a re-analysis of the deposited data

How the results depend on the processing

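None of the 3 oleosins was called in any of 16 fits, which count the reported one and those with models summed per gene or 1 model a gene. LOC_Os05g50110 was higher at high temperature in all 16, with log2 fold changes from 0.17 to 1.24. These fits reuse the same libraries, so the shared sign is not independent support. They also count limma on the deposited RPKM (0.30), which mixes units. The sign of LOC_Os04g46200 turned with limma on the deposited RPKM (0.13), and leaving out 1 library gave -0.45 to 0.30, with values above 0 without control 2 (0.30) and without heat 1 (0.02). LOC_Os03g49190 turned with library totals alone (0.021) and with limma (0.025), and ran from -0.30 to 0.28 without 1 library. LOC_Os01g45624 turned with limma (0.23) and ran from -0.51 to 0.27, LOC_Os06g27910 from -0.55 to 0.45 and LOC_Os09g15520 from -0.61 to 1.49 without 1 library. The median over all transcripts was -0.74 with limma on the deposited values. In that fit control 1 entered as reads multiplied by length and the other libraries as RPKM. Its fold changes therefore mix units, and the sign turns with limma cannot be read as changes in level.

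The number of transcripts called over all tested was 34 with library totals alone, 365 (0.822%) with no filter on low counts, 58 with DESeq2 and 0 to 354 without 1 library (42 without control 1 and 354 without control 2). The replicate block called 0 transcripts and gave LOC_Os05g50110 a log2 fold change of 0.70, and it changed no call of an oleosin. Same-numbered libraries deviated in opposite directions (correlation -0.40 across transcripts), so a crossed block was added after seeing the data, and it called 828 (3.03%). With no filter, 1 gene was called among other oil body proteins, 1 in fatty acid synthesis, 1 among LEA and dehydrin genes and 2 in the starchy endosperm list. With the crossed block the counts were 1, 2, 1 and 7, with 1 in triacylglycerol assembly and 2 in the photosynthesis list. DESeq2 called 2 starchy endosperm genes. Without 1 library the ranges were 0 to 1 for other oil body proteins, 0 to 9 for LEA and dehydrin genes, 0 to 2 for the genes listed by ID, 0 to 2 for starchy endosperm and 0 to 4 for photosynthesis.

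Relative to the mean of the 4 libraries, the summed oleosin level of control 1 and 2 was 1.05 and 0.959 in CPM, 0.789 and 1.26 after TMM, and 0.916 and 1.04 without the abundant pair. The oleosin to starchy endosperm ratio on the same footing was 0.961 and 0.872 in control 1 and 2 and 1.03 in heat 2. Against glutelins alone it was 0.944 in control 2. Against starch synthesis genes alone it was 0.767 and 0.975 in control 1 and 2 and 1.15 in heat 2.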
